A study of Mus musculus with 16 samples.

Results

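The 10 apolipoprotein genes Apoa1, Apoa2, Apoa4, Apoa5, Apob, Apoc1, Apoc2, Apoc3, Apoe and Apom were followed in bulk RNA sequencing of mouse liver. They were chosen by name, as the genes for the main protein components of plasma lipoproteins, and were 10 of 25803 genes in the deposited count tables. All 10 passed the filter on low counts, which left 14488 genes for testing. The 16 libraries, 4 in each of 4 groups, came from male mice that had eaten a high-fat diet for 12 weeks before they were taken. Controls (called wild type in the study's design text) and mice with a liver knockout of Cpt1a (LKO) were taken after a 16 h fast or after a 16 h fast and 6 h of refeeding. The diet was common to all 4 groups. Refed mice had 6 h more after the start of the fast. Unless the fasts began at different hours, hour of collection was thus not separated from refeeding, and its part was not tested. How the knockout was made and how old the mice were is not given in the sources used here. Nothing in the labels ties a library to a separate animal beyond its sample number, so p-values measure the spread between these samples.

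Apolipoproteins are the proteins of lipoprotein particles. They hold the lipid core in solution, activate or inhibit the enzymes that remodel it, and bind the receptors that clear the particles. Most of those in plasma are made by hepatocytes, and the small intestine adds part of the supply. Several of the genes lie in clusters, so that neighbours with unlike functions share a stretch of chromosome.

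Members of the chromosome 9 and chromosome 7 clusters differed in how they changed, and sequence just before their start sites is shown here for the 4 members to which most of the results below refer. These are the bases before the RefSeq start in the GRCm38.p6 promoter table, at most 250, ended ahead of any base that GENCODE M21 places within a transcript. Capitals mark exact matches to any of 7 motifs searched on both strands.
Apoa4, chr9:46240594-46240695, plus strand: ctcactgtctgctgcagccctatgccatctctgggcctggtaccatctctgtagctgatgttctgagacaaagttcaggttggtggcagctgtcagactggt
Apoa1, chr9:46228380-46228579, plus strand: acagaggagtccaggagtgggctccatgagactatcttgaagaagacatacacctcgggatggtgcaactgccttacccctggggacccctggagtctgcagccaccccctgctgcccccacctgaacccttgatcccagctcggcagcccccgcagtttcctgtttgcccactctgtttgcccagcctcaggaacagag
Apoa5, chr9:46268358-46268607, plus strand: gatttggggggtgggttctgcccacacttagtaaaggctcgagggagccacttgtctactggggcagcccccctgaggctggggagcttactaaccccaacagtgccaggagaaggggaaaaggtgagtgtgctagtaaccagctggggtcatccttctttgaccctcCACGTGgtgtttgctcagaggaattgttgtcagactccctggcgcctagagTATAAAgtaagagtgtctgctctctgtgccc
Apoe, chr7:19699189-19699438, minus strand: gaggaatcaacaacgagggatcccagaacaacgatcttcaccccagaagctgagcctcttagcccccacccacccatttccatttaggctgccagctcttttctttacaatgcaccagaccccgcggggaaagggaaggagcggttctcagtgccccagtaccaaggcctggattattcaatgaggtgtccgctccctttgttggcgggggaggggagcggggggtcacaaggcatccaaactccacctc
The motifs searched were CAAAGTCCA for HNF4, TGACGTCA for the CRE, CACGTG for the E-box, TATAAA for the TATA box, and the DR1, IR1 and RORE nuclear receptor elements. The Apoa5 window held a CACGTG at position -82 and a TATAAA at position -31 from its RefSeq start. From another RefSeq start of Apoa5 (window chr9:46268383-46268632) the same letters lie at -107 and -56. Over all 32851 RefSeq windows of the same length, CACGTG occurred in 6.02% and TATAAA in 12.4%. The windows printed for Apoa4, Apoa1 and Apoe held none of the 7, which says only that these letters are not in these stretches. Other windows of members did hold the TATA box letters, at -60 for Apob, at -212 for Apoa2, and for another RefSeq start of Apoe (window chr7:19698622-19698871) at -96 and, on the other strand and overlapping it, at -100. A promoter entry was found for 8 of the 10 members, and Apoc1 and Apoc3 are the others.

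Libraries held 14721601 to 24618230 counts, and the 10 members took 5.62% to 8.06% of them. Cpt1a, which encodes the carnitine palmitoyltransferase of the outer mitochondrial membrane, was at 377 to 555 CPM (counts per M, mega, counts of the TMM-scaled library) in fasted control and 86.0 to 125 in fasted LKO. It was at 319 to 619 CPM in refed control and 39.8 to 75.1 in refed LKO. The LKO groups thus kept 20.7% of the control level when fasted and 11.9% when refed (exact two-sided permutation p = 0.0286 for each, the smallest that 4 against 4 allows). In both states every LKO library lay below every control library. Summed hepatocyte markers (8 genes, Alb and Ttr among them) ran from 73861 to 80788 CPM in fasted control and from 52837 to 69717 in fasted LKO, and from 74406 to 92069.6 in refed control and 61134 to 72238 in refed LKO. Alb alone averaged 48156 CPM in fasted control, of a mean sum of 77890. The 8 lymphocyte markers summed to 9.78 to 22.4 CPM in fasted control and 32.1 to 45.95 in fasted LKO, and to 12.7 to 19.5 and 28.3 to 59.6 in the refed groups. At an adjusted p under 0.05 by edgeR, 2 of 8 hepatocyte markers were lower fasted and 0 refed. Of 7 lymphocyte markers tested 1, Jchain, was higher in each state. Of all genes 12.2% passed that cut fasted and 3.63% refed. The part of either list in the differences between genotypes was not tested, and in bulk tissue fewer cells of a type cannot be told apart from less RNA per cell.

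Per gene length, Apoe had the highest level of the members and Apoc2 the lowest as counted. The Apoc2 value is uncertain, because the gene Apoc2l covers 99.9% of its span and the handling of shared reads is not given in the sources used here. Mean CPM per kb over the 16 libraries was 18533 for Apoe, 12699.9 for Apoa2, 9596 for Apoa1, 2672 for Apoc1, 1468 for Apoc3, 1017 for Apoa4, 437 for Apoa5, 217 for Apob, 120.2 for Apom and 5.52 for Apoc2. On this scale Apoe ranked 2, Apoa2 ranked 4 and Apoa1 ranked 6 among all genes. The ranges over libraries of neighbours in this order overlapped, except between Apoa1 and Apoc1, between Apob and Apom, and between Apom and Apoc2. Most members stayed within a narrow band, from 1.501-fold between the highest and the lowest library for Apoa2 to 2.84-fold for Apoc2. Apoa4 spanned 19.9-fold. Apoe took 3.22% to 5.27% of all counts of a library.

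**Figure D1:**
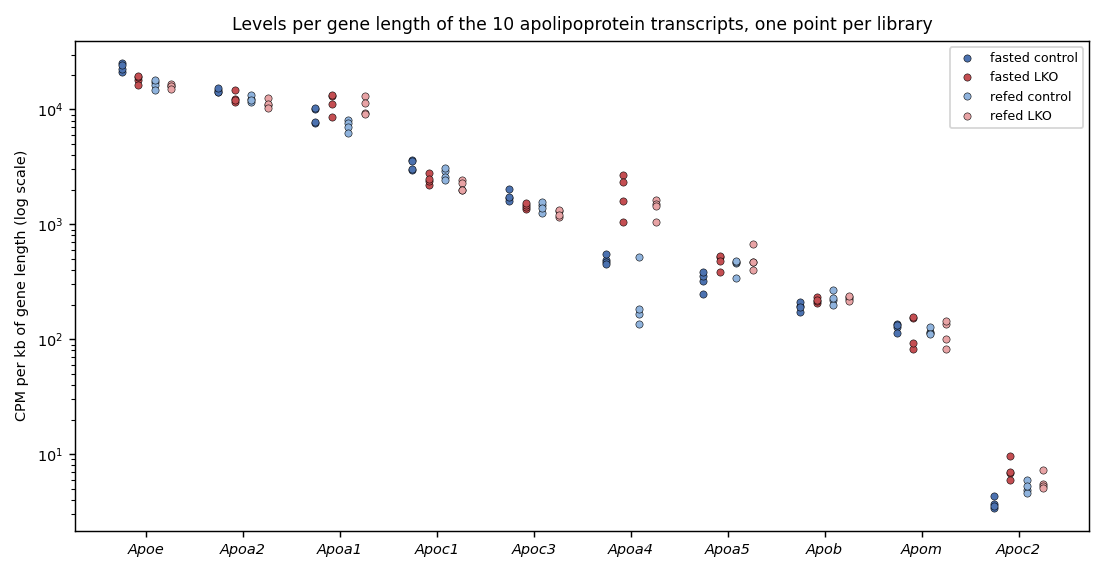
Level of each of the 10 apolipoprotein transcripts in each of the 16 libraries, as CPM per kb of gene length on a log axis, with genes ordered by their mean and points coloured by group. Apoa4 moves across 19.9-fold, from 136 to 2711 CPM per kb, while the other 9 genes stay within 2.84-fold.

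After the fast, Apoa4, Apoa5 and, as counted, Apoc2 were higher in LKO than in control livers, and Apoc1 and Apoe were lower. A gene is called here at an adjusted p under 0.05 (edgeR quasi-likelihood test, Benjamini-Hochberg adjustment over all genes tested). By that rule 5 of the 10 members were called in the fasted genotype comparison, 3 higher and 2 lower, where 12.2% of all genes were called, 5.76% higher and 6.49% lower. For 6 of 10 members the 4 LKO libraries and the 4 control libraries did not overlap, as was so for 16.9% of all genes. In the refed state 1 of 10 members was called, Apoa4, against 3.63% of all genes, and 3 of 10 did not overlap, against 11.7%. The median log2 fold change of the members was 0.04 fasted and -0.02 refed, beside 0.02 and -0.01 over all genes tested.

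**Figure D2:**
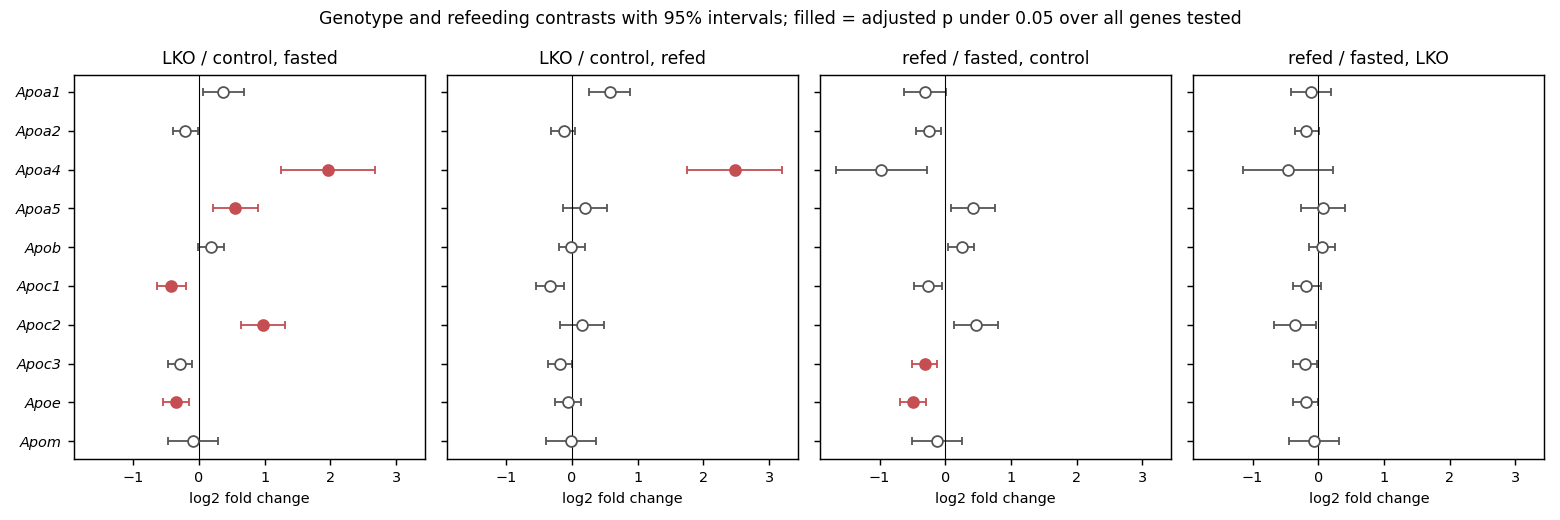
Log2 fold changes of the 10 members in the 4 pairwise contrasts, with 95% intervals from the standard error by the normal approximation. Filled points have an adjusted p under 0.05 over all 14488 genes tested. Apoa4 is the only member filled in both genotype contrasts, at 1.96 and 2.48, and no member is filled for refeeding in LKO.

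Apoa4 (chr9:46151994-46154757, plus strand, as given in the authors' annotation columns; the submitters' processing notes name the build mm39) encodes apolipoprotein A-IV, a component of chylomicrons and high-density lipoprotein (HDL). In fasted control its CPM values were 893, 853, 827 and 1005, and in fasted LKO they were 4921, 1899, 4243 and 2899. In refed control they were 303, 247, 329.8 and 948, and in refed LKO 1909, 2936, 2730.0 and 2603. In both states every LKO library was above every control library, by at least 894 CPM on the fasted side and 961 on the refed side. Group means were 894 ± 78.8 CPM and 3490.5 ± 1353 when fasted, and 457 ± 329 and 2545 ± 445 when refed (SD, n = 4). The rise in LKO was 3.90-fold fasted (log2 1.96, SE 0.36, adjusted p = 0.00272) and 5.57-fold refed (log2 2.48, SE 0.37, adjusted p = 0.00181). Both calls held under all the alternatives run, but the size in the refed state rests in part on 1 refed control library, S51, without which it was 3.12 on the log2 scale. The fold was not shown to differ between the states, with an interaction of 0.51 on the log2 scale (SE 0.50, adjusted p = 0.645), or 1.15 without S51 (adjusted p = 0.11).

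Refeeding differences of Apoa4 did not pass the threshold in either genotype by edgeR with all 16 libraries. In controls the log2 difference was -0.97 (SE 0.35, adjusted p = 0.0743), and 3 of the 4 refed libraries lay below every fasted one. The fourth, S51, was at 948 CPM, within the fasted range. Without S51 the difference was -1.61 with an adjusted p of 0.000941. With all libraries limma-voom called it (log2 -1.18, adjusted p = 0.0248) and DESeq2 did not. In LKO the difference was -0.46 (SE 0.35, adjusted p = 0.411) and the groups overlapped.

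The antisense gene Gm47528, an unclassified transcript on the minus strand, covers 48.4% of the Apoa4 span. It had 6 to 532 counts per library against 4649 to 98679 for Apoa4, and was itself higher in fasted LKO (log2 2.77, SE 0.59, adjusted p = 0.00599). The library protocol used dUTP, which marks strand, but whether strand was used in counting is not given in the sources used here. Because Apoa4 is also an intestinal gene, 10 genes listed as markers of intestinal epithelium were read beside it. Of these, 7 (Cdx1, Cdx2, Sis, Lct, Krt20, Alpi and Apobec2) were under 0.1 CPM averaged over the 16 libraries. The highest group mean of these 7 was 0.176 CPM, for Apobec2 in fasted control. Apobec2 is not specific to intestinal epithelium, so its low level says little about that tissue. Vil1 was at 0.12 to 0.57 CPM. The other two, Fabp2 and Lgals4, were higher in fasted LKO, at 283 against 169 CPM (adjusted p = 0.000296) and at 80.6 against 42.6 (adjusted p = 0.000479). Fabp2 was higher in refed LKO too, at 278 against 152 CPM (adjusted p = 0.000223). Lgals4 was not called there, at 29.5 against 28.4 CPM, and it was called lower in the interaction. Summed over the 10 listed genes the level was 204 to 222 CPM in fasted control and 311 to 414 in fasted LKO. It was 167 to 189 in refed control and 277 to 354 in refed LKO.

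**Figure D3:**
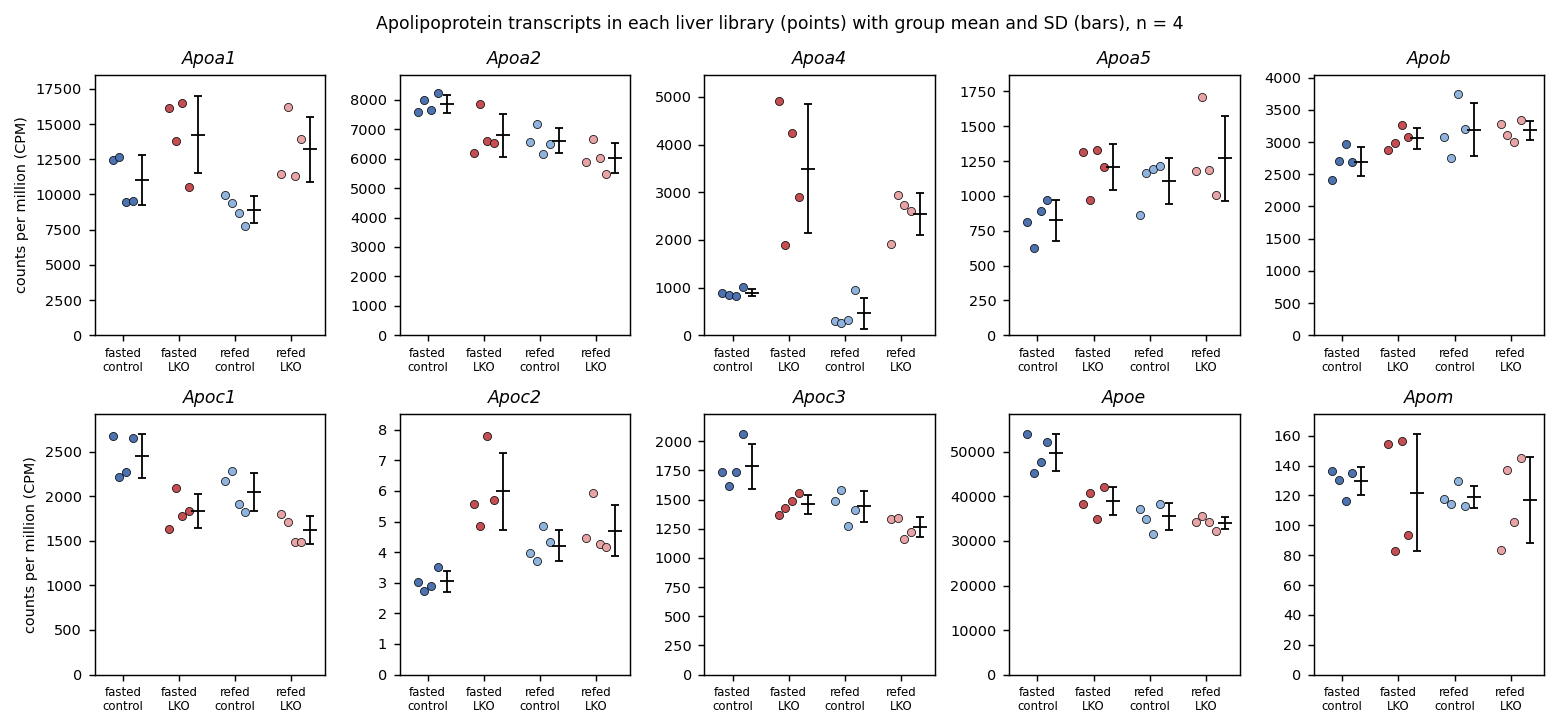
CPM of each member in each library, as points in the order of the library names within each of the 4 groups, with the group mean and SD as bars beside them, on linear axes from 0. For Apoa4 the LKO libraries sit at 1899 to 4921 fasted and 1909 to 2936 refed, above all control libraries, and refed control S51 stands apart at 948.

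Apoa1 (chr9:46139878-46141764, plus strand) encodes apolipoprotein A-I, the main protein of HDL and the activator of cholesterol esterification in plasma. Its CPM values were 12481, 12629.8, 9475 and 9554 in fasted control and 16173, 13806, 16511 and 10552 in fasted LKO. In refed control they were 9934, 9359.8, 8673 and 7743, and in refed LKO 11444, 16187, 11303 and 13939. The refed groups did not overlap, and in the fasted state 3 of 4 LKO libraries were above every control, while S47 was within their range. The log2 difference was 0.37 fasted (SE 0.16, adjusted p = 0.149) and 0.57 refed (SE 0.16, adjusted p = 0.0603), so neither passed the threshold. Without S47, Apoa1 passed it in both states, at log2 0.49 with an adjusted p of 0.0469 fasted and at log2 0.57 with an adjusted p of 0.0355 refed. S47 is in neither refed group, so its removal reached the refed p-value only through the shared fit and adjustment. DESeq2 also called the refed difference (adjusted p = 0.0123), as did scaling by library totals alone (adjusted p = 0.0294), and in the authors' deposited table it has an adjusted p of 0.00244.

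Apoa1 and Apoa4 encode proteins of the same particles, and their balance changed with genotype. Per gene length the Apoa4 level was 5.64% ± 1.17 of the Apoa1 level in fasted control and 16.6% ± 4.98 in fasted LKO (SD, n = 4). In refed control it was 3.70% ± 3.11, and in refed LKO 13.2% ± 2.23. The lowest LKO library (9.37%) was above the highest control (8.34%). These ratios come from the Apoa4 values tested above and were not tested again.

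Apoa2 (chr1:171052623-171053948, plus strand) encodes apolipoprotein A-II, another structural protein of HDL. It was at 7585, 7982, 7641 and 8220.4 CPM in fasted controls and at 6188, 7853, 6616 and 6540.3 in fasted LKO. After refeeding it was at 6581, 7183, 6172 and 6482 in controls and at 5892, 6680.2, 6029 and 5475 in LKO. Fasted control was the highest group and did not overlap refed control. The difference from it was -0.21 on the log2 scale in fasted LKO (SE 0.10, adjusted p = 0.174) and -0.25 in refed control (SE 0.10, adjusted p = 0.0875). The second was called by DESeq2 (adjusted p = 0.027), with a minimum mean of 5 CPM (adjusted p = 0.0487) and in the authors' deposited table (adjusted p = 0.015).

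Apom (chr17:35347973-35351026, minus strand) encodes apolipoprotein M, which carries sphingosine 1-phosphate on HDL. Its mean CPM was 129 ± 9.38 in control and 122 ± 39.2 in LKO livers when fasted, and 119 ± 7.41 and 117 ± 29.0 when refed (SD, n = 4). No contrast called it, and the log2 differences ran from -0.12 to -0.02 in the 4 pairwise contrasts (SE 0.19 in each). Its spread was wider within the LKO groups, with 154, 82.7, 157 and 93.2 CPM in fasted LKO and 83.6, 137, 102 and 145 in refed LKO. Fasted LKO held both the highest and the lowest library of the 16. S44 and S46, the fasted LKO libraries high in Apom, were also the highest of that group in Apoa4, Apoa1 and Apoa5.

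Apob (chr12:8027648-8066835, plus strand) encodes the large structural protein of which each very-low-density lipoprotein (VLDL) particle carries a single copy. Its CPM was 2414, 2703, 2968 and 2685 in fasted control and 2883, 2992, 3265 and 3086 in fasted LKO. It was 3072, 2749, 3752 and 3199 in refed control and 3273, 3114, 2997 and 3337 in refed LKO. Within each comparison the groups overlapped. The genotype difference was 0.18 on the log2 scale fasted (SE 0.10, adjusted p = 0.254) and -0.01 refed, where the 95% interval of -0.20 to 0.19 bounds its size (adjusted p = 0.986). Refeeding in controls gave 0.25 (SE 0.10, adjusted p = 0.105), which DESeq2 called (adjusted p = 0.0491).

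The liver of the mouse also edits the Apob transcript to a shorter coding form, and gene counts do not separate the forms. Of the genes of that editing, Apobec1 (the deaminase), A1cf and Rbm47 (its RNA-binding partners), 0 of 3 were called in any contrast by edgeR, DESeq2 or limma-voom. With edgeR 1 of them, Apobec1, had an unadjusted p under 0.05, for refeeding in LKO (log2 -0.43), where 31.0% of all genes did. The fasted genotype values were 0.20 for Apobec1, 0.24 for A1cf and -0.04 for Rbm47 on the log2 scale.

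Another 3 members act mainly on lipolysis by lipoprotein lipase. Apoc2 encodes its obligatory activator, Apoc3 an inhibitor that also slows clearance, and Apoa5 a protein that promotes lipolysis in plasma. Apoa5 (chr9:46179931-46183217, plus strand) had 809, 624, 892 and 973 CPM in fasted control and 1317, 974, 1327 and 1209 in fasted LKO. It had 860.1, 1163, 1193 and 1218 in refed control and 1176, 1711, 1188 and 1009 in refed LKO. Every fasted LKO library was above every fasted control library, although the nearest pair, S43 and S45, differed by 1.44 CPM. The rise was 1.46-fold (log2 0.55, SE 0.17, adjusted p = 0.0460). It lay close to the threshold: leaving out any of 11 libraries (S40, S41, S42, S44, S46, S47, S49, S50, S51, S52 and S54) gave an adjusted p between 0.0511 and 0.132, and fitting only the fasted groups gave 0.0535. Refed groups overlapped (log2 0.20, SE 0.17, adjusted p = 0.591). In controls refeeding gave 0.43 (SE 0.17, adjusted p = 0.102), and in the authors' deposited table that difference has an adjusted p of 0.0375.

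Apoc2 (chr7:19405504-19411866, minus strand) was counted at 46 to 139 reads per library. Its CPM was 3.03, 2.74, 2.90 and 3.52 in fasted control and 5.59, 4.86, 7.78 and 5.71 in fasted LKO. It was 3.96, 3.71, 4.85 and 4.34 in refed control and 4.45, 5.94, 4.26 and 4.15 in refed LKO. Fasted control held the 4 lowest libraries of all 16. The rise in fasted LKO was 1.96-fold (log2 0.97, SE 0.17, adjusted p = 0.00191), and it was called by each alternative that tested the gene. The refed difference was 0.15 (SE 0.17, adjusted p = 0.696). The test of the difference between these effects gave -0.82 (SE 0.24, unadjusted p = 0.00319, adjusted p = 0.105).

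The low count of Apoc2 cannot be read as the level of the gene. Apoc2l lies on the same strand, and in GENCODE M21 79.5% of the exonic bases of Apoc2 are also exonic in that overlapping model. Apoc2l itself had 0 or 1 count in each library, 4 in all, against 1301 for Apoc2. The change of Apoc2 is thus uncertain too.

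Apoc3 (chr9:46144231-46146934, minus strand) was at 1734, 1614, 1736 and 2064 CPM in fasted control and 1367, 1425, 1486 and 1558 in fasted LKO. It was at 1491, 1586, 1277 and 1415 in refed control and 1333, 1346, 1164 and 1226 in refed LKO. Fasted control stood above both fasted LKO and refed control without overlap, and refed LKO stood below fasted LKO without overlap. In refed control Apoc3 fell to 0.807 of the fasted level (log2 -0.31, SE 0.10, adjusted p = 0.0383). That call was lost without any one of S40, S42, S43, S48, S50, S51 or S55 (adjusted p 0.0507 to 0.133). The fasted genotype difference was as large, -0.29 on the log2 scale (SE 0.10), with an adjusted p of 0.0568. DESeq2 called it (adjusted p = 0.0147), as did a minimum mean of 5 CPM (adjusted p = 0.0428), and in the authors' deposited table it has an adjusted p of 0.0286.

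Apoe (chr7:19430034-19433113, minus strand) encodes the ligand by which remnant particles bind lipoprotein receptors. Its CPM was 54116, 45176, 47712 and 52304 in fasted control and 38319, 40757, 34982 and 42057 in fasted LKO. It was 37225, 35042, 31530.0 and 38384 in refed control and 34310.2, 35598, 34168 and 32303 in refed LKO. All 4 fasted control libraries were above all 12 others. Apoe fell with LKO in the fasted state to 0.783 of the control level (log2 -0.35, SE 0.10, adjusted p = 0.0322), and fell with refeeding in controls to 0.713 (log2 -0.49, SE 0.10, adjusted p = 0.00538). In refed livers the genotypes overlapped (log2 -0.06, SE 0.10, adjusted p = 0.814), and refeeding in LKO gave -0.19 (SE 0.10, adjusted p = 0.206). The 2 comparisons in which Apoe fell share the fasted control libraries. The interaction was 0.29 (SE 0.14, unadjusted p = 0.0584, adjusted p = 0.323), so the 2 genotype effects were not shown to differ.

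The fasted genotype call of Apoe was lost without any one of S40, S42, S43, S44 or S46 (adjusted p 0.0502 to 0.0965), with library totals alone (adjusted p = 0.0636) and with only the fasted groups in the fit (adjusted p = 0.121). Macrophages express Apoe as well, and 14 markers of Kupffer cells and macrophages summed to 470 to 825 CPM in fasted control and 520 to 775 in fasted LKO. They summed to 388 to 1252 CPM in refed control and 402 to 585 in refed LKO. Of those 14 markers 0 were called in any of the 5 contrasts by edgeR, DESeq2 or limma-voom. In refed LKO against control 6 had an unadjusted p under 0.05 by edgeR, and the list median was -0.54 on the log2 scale, beside -0.01 over all genes. The share of all genes at that unadjusted cut is not given here, so the 6 cannot be set against it.

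Apoc1 (chr7:19423406-19426585, minus strand) encodes a small protein of VLDL and HDL that hinders the binding of remnants to their receptors. It was at 2672, 2216, 2269 and 2652 CPM in fasted control and 1626, 2095, 1781 and 1829.9 in fasted LKO. It was at 2169, 2279, 1917 and 1817 in refed control and 1801, 1712, 1486 and 1482 in refed LKO. In both states all LKO libraries were below all control libraries. It fell to 0.748 of the control level in fasted LKO (log2 -0.42, SE 0.11, adjusted p = 0.0203). The refed value was -0.34 (SE 0.11, adjusted p = 0.101), which DESeq2 called (adjusted p = 0.0464). The fasted call was lost without any one of S40, S43, S44 or S46 (adjusted p 0.0528 to 0.0649) and with only the fasted groups in the fit (adjusted p = 0.0546).

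Gene length moved with these contrasts. In fasted LKO the median log2 fold change was -0.09 over the 387 genes of at most 1100 bases and 0.07 over the 3970 genes of at least 5000 bases (both with a mean of at least 5 CPM), and in control refeeding the medians were -0.08 and 0.10. Apoa2, Apoc1, Apoc2, Apoc3 and Apom are of at most 1100 bases, and Apob is of 13934. With the trend of each library on gene length removed, Apoc1 kept its fasted call, the fasted call of Apoe moved to an adjusted p of 0.0578 and the control refeeding call of Apoc3 to 0.117. Apoc2 then passed the threshold for refeeding in controls (log2 0.56, adjusted p = 0.0381).

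With refeeding in controls 2 of 10 members were called, Apoe and Apoc3, both lower, where 15.4% of all genes were called and 7.65% of all genes were called lower. Groups did not overlap for 4 of 10 members, against 20.4% of all genes. In LKO refeeding called 0 of 10 members by edgeR, by DESeq2 and by limma-voom, against 18.0% of all genes by edgeR. There 2 members, Apoc2 (log2 -0.35) and Apoc3 (log2 -0.20), had an unadjusted p under 0.05, as did 31.0% of all genes, and Apoc3 was the 1 member without overlap, against 20.6% of all genes. The median log2 difference of the members was -0.26 in controls and -0.18 in LKO, beside 0.01 and -0.02 over all genes. The interaction of genotype and state called 0 of 10 members by edgeR, DESeq2 and limma-voom, against 0.538% of all genes by edgeR. At an unadjusted p under 0.05 it was 1 of 10, Apoc2, beside 16.5% of all genes. Of the 10 members, 6 have an adjusted p under 0.05 for fasted LKO against control in the authors' deposited table, where 7.54% of the genes listed do. Their number in the authors' deposited table is 2 for refed LKO against control (4.03% of genes), 4 for refeeding in controls (10.1%) and 0 for refeeding in LKO (9.83%).

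Members in the same cluster did not move as a block. On chromosome 9, Apoa1, Apoc3, Apoa4 and Apoa5 lie within 43.3 kb. Between Apoa1 and Apoa4, both higher in LKO in each state by their point estimates, lies Apoc3, which was lower in each. Zpr1 and Bud13, which follow Apoa5, were not called in any contrast. Of the 7 neighbours examined on this chromosome 0 were called for genotype in either state by edgeR, DESeq2 or limma-voom. By edgeR 12.2% of all genes were called fasted and 3.63% refed, so 0 of 7 does not set these neighbours apart. At an unadjusted p under 0.05 edgeR gave 1 of these 7 neighbours fasted and 2 refed, with no share of all genes at that cut to set beside them. On chromosome 7, Apoc2, Apoc4, Apoc1 and Apoe lie within 27.6 kb on the minus strand. In fasted LKO, Apoc1 and Apoe fell, and Apoc2 rose as counted, although that change is uncertain because of the overlapping Apoc2l. Apoc4, between Apoc2 and Apoc1, was at 466 CPM against 452 (log2 0.05, SE 0.11, adjusted p = 0.832). Tomm40, the mitochondrial import channel gene whose nearer end lies 2.12 kb from Apoe, fell in fasted LKO as well (log2 -0.34, adjusted p = 0.0252), as did Bcl3 (log2 -0.52, adjusted p = 0.0281). These were the 2 of 7 neighbours examined on chromosome 7 that were called there, against 12.2% of all genes. In refed LKO 0 of 7 were called by edgeR, against 3.63% of all genes.

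**Figure D4:**
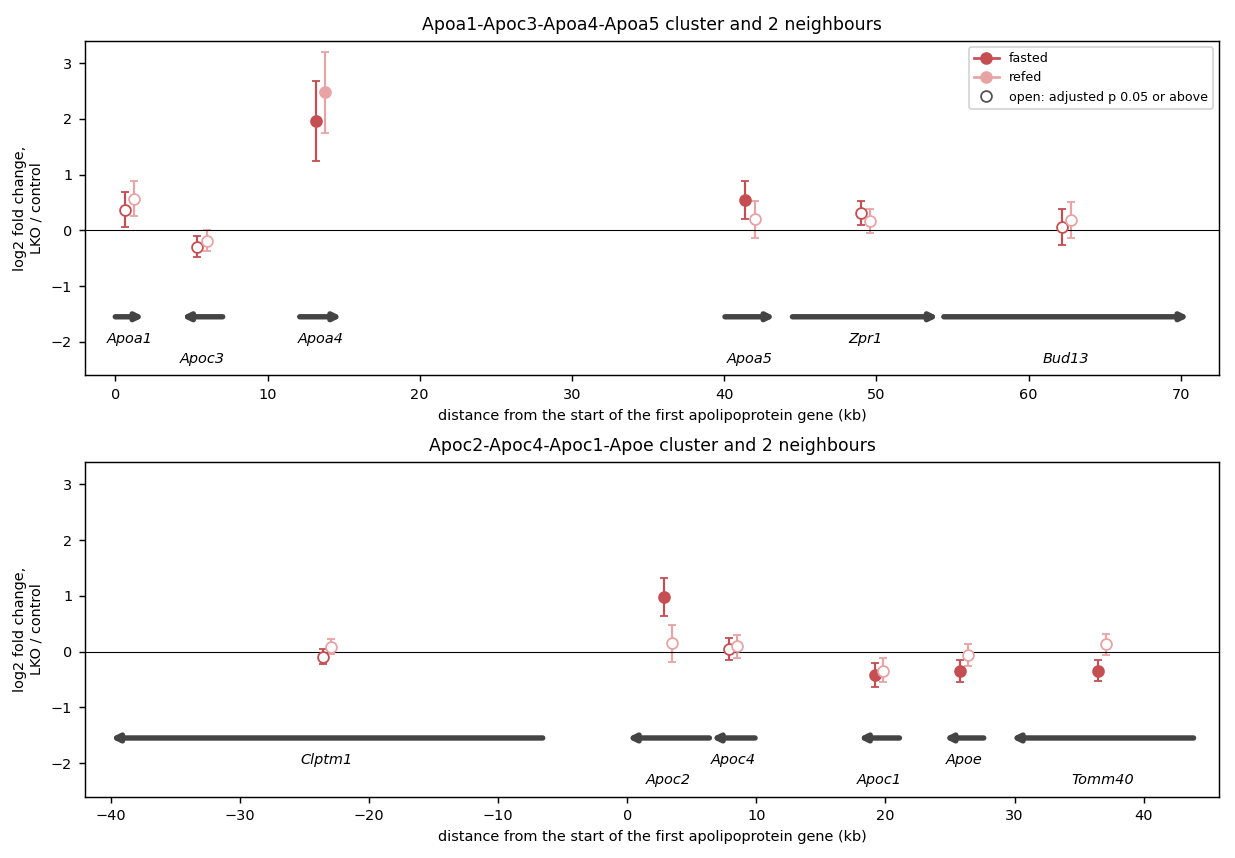
Log2 fold change of LKO over control, fasted and refed, with 95% intervals by the normal approximation, at the position of each gene in the chromosome 9 cluster (top) and the chromosome 7 cluster (bottom). The horizontal axis is distance in kb from the start of the first apolipoprotein gene, arrows give gene spans and strands, and open points did not pass the threshold. Apoa4 at 1.96 and 2.48 stands between Apoc3 at -0.29 and -0.19 and Apoa5 at 0.55 and 0.20.

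Of 18 genes for other proteins of lipoproteins or with an apolipoprotein name, 16 were tested. In fasted LKO 2 were called, both lower, where 6.49% of all genes were called lower and 12.2% in either direction. In refed LKO 0 were called by edgeR, with 6 at an unadjusted p under 0.05, while DESeq2 called 1 and limma-voom 0. The share of all genes at that unadjusted cut is not given here. Saa4, a constitutive serum amyloid of HDL, fell by 1.78 on the log2 scale (adjusted p = 0.00137) and Apol7a fell by 0.75 (adjusted p = 0.028). Apoh (-0.26, adjusted p = 0.0879), Apof (0.06, adjusted p = 0.616) and Pon1 (-0.18, adjusted p = 0.402), of the same list, did not pass in fasted LKO. With refeeding in LKO 7 of 16 were called, against 18.0% of all genes, among them Saa4 (log2 1.30, adjusted p = 0.00569), which is higher, and Apobr, a receptor for Apob-containing particles (log2 -1.24, adjusted p = 0.0254), which is lower.

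Among 19 genes of lipoprotein assembly and secretion, 2 rose in fasted LKO and 0 fell, where 5.76% of all genes were called higher and 12.2% in either direction. Mttp, the triglyceride transfer protein that loads lipid onto the Apob protein, rose by 0.84 on the log2 scale (adjusted p = 0.000492), beside 0.18 for Apob itself. Cidec, a lipid droplet protein, rose by 2.20 (adjusted p = 0.00984). In refed LKO 0 of 19 were called by edgeR, with 5 at an unadjusted p under 0.05, and 0 by DESeq2 and 1 by limma-voom. Those 5 again have no share of all genes beside them. With refeeding in controls 5 of 19 rose and 0 fell, where 15.4% of all genes were called, with Ces1d at 0.81, P4hb, the partner subunit of Mttp, at 0.58 and Mttp at 0.40 among them. In LKO 5 rose and 1, Cidec, fell, where 18.0% of all genes were called.

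Of 12 genes that remodel lipoproteins, 1 rose and 3 fell in fasted LKO, against 12.2% of all genes called. Lpl, the lipase that the Apoc2 protein activates, rose by 0.66 (adjusted p = 0.0475). Among those that fell, Lipc, the hepatic lipase, fell by 0.59 (adjusted p = 0.00361) and Lmf1, which matures lipases, fell by 0.38 (adjusted p = 0.0126). Lipc fell in refed LKO as well, by 0.73 (adjusted p = 0.00276). Angptl8, another lipase regulator, rose with refeeding in both genotypes, by 1.77 in controls (adjusted p = 0.0486) and 2.49 in LKO (adjusted p = 0.00883).

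Of 12 genes for lipoprotein receptors and their control, 4 fell in fasted LKO and 0 rose, against 6.49% of all genes called lower. Among them were Vldlr (log2 -1.41, adjusted p = 0.00967), Lrp1, which binds the Apoe protein on remnants (log2 -0.69, adjusted p = 0.000466), and Scarb1, the HDL receptor (log2 -0.46, adjusted p = 0.00651). Lrp1 and Scarb1 also fell with refeeding in controls (log2 -0.46 and -0.56), as Apoe did.

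Of 23 transcription factors reported to act on apolipoprotein genes, 3 fell in fasted LKO and 0 rose. Of all genes 6.49% were called lower there and 12.2% in either direction. The median of the 23 was -0.21 on the log2 scale, beside 0.02 over all genes tested. Srebf1, a lipogenic factor, fell by 2.25 on the log2 scale (adjusted p = 0.000239), Mlxipl, the carbohydrate response factor, by 0.55 (adjusted p = 0.000772) and Esrra by 0.27 (adjusted p = 0.0377). Factors best known for the chromosome 9 cluster did not pass in fasted LKO, with Hnf4a at -0.21 (adjusted p = 0.394), Ppara at 0.45 (adjusted p = 0.161) and Creb3l3 at 0.14 (adjusted p = 0.468). Nr1d1, a clock repressor reported to act on Apoc3, was lower in refed than in fasted livers of both genotypes, by 2.29 in controls (adjusted p = 0.000719) and 2.05 in LKO (adjusted p = 0.000627). The part of the hour of collection in this difference was not tested.

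Likeness of pattern was described by Pearson's r of log2 CPM over the 16 libraries, which share groups, so that r carries the group differences as well. Among members Apoc1, Apoc3, Apoe and Apoa2 varied together, with r from 0.77 to 0.88 for their 6 pairs, and from 0.32 to 0.65 after group means were removed. Apob varied opposite to Apoe (r = -0.78, and -0.56 within groups). The trend of each library on gene length was not removed from any r given here. In S40, where Apob was lowest and Apoe highest, the median log2 deviation was 0.11 for the short genes and -0.12 for the long ones. In S50, where Apob was highest and Apoe lowest, these were -0.12 and 0.12. The part of this trend in the r values was not tested. Apoa1 and Apoa4 had r = 0.73 over the 16 libraries but 0.03 within groups. Among the other genes with a mean of at least 5 CPM, Apoa4 was most like Serinc2 (r = 0.98, and 0.87 within groups), Atp9a (0.97 and 0.90) and Lamb3 (0.96 and 0.89). Apoa1 was most like the proteasome genes Psma7 (r = 0.95) and Psmb4 (0.91), Apoc1 like Gchfr (0.94), Apoc3 like Rarres2 (0.95), Apoe like Sgta (0.95) and Apob like Usp34 (0.92). These values are descriptive.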

How the data were processed

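The labels' protocols describe oligo-dT selection of liver mRNA and random-primed dUTP libraries. The submitters' processing notes name HISAT2 2.0.5 and mm39, and the counting tool is not given in the sources used here. The authors deposited 4 tables of read counts per gene, with their own log2 fold changes and adjusted p-values, whose tool is not given. Library columns (S40 to S55) were assigned to groups by the headings that the tables share, and 64 other per-library columns were not used.

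Tables were joined on gene identifier, and 3148 genes absent for low totals were set to 0 where absent. In R 4.3.3 with edgeR 4.0.16, genes passing filterByExpr were scaled by TMM (factors 0.941 to 1.07), and glmQLFit took all 16 libraries with group as the only factor. The biological coefficient of variation was 0.185. Tests used glmQLFTest for 5 contrasts with Benjamini-Hochberg adjustment, and the pipeline was tested on simulated data. Alternatives used DESeq2 1.42.0, limma-voom (limma 3.58.1), other scalings and filters, and each library left out. Named genes were the members, Cpt1a, genes of the other lists (up to 4 called genes per contrast for assembly, remodelling and receptors) and the genes most alike each member. The members and lists were chosen with earlier results of these data known. Some genes of these lists are counted but not reported by name here.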

Additional observations from a re-analysis of the deposited data

Results flagged for a closer look

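Of 44 sets of 4 libraries examined for a library far from the others, 3 held one among the apolipoprotein genes, where chance alone flags about 1 in 20 sets. In each, the gap from one end of the group to the nearest other library exceeded 0.829 of the group's range. Apoa4 in refed control was at 948 CPM in S51, with the other 3 libraries at 247 to 329.8. Apoa5 in refed control was at 860.1 CPM in S48, with the others at 1163 to 1218. Apoc2 in refed LKO was at 5.94 CPM in S53, with the others at 4.15 to 4.45. In S51 Cpt1a was at 619 CPM, the highest of all 16 libraries, and its Apoa1 level was the lowest of the 16, at 7743 CPM.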

How the results depend on the processing

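Of 1494 alternative values for single genes and group levels, 1418 kept both direction and side of the threshold. Of the rest, 35 lost a call, 13 gained one and 28 changed sign, 0 of these with a call. Group levels carry no call, and values not called in the main fit had none to lose, so the number kept does not measure how firm the calls are. The 35 lost calls were 12 for Apoa5, 8 for Apoe and 5 for Apoc1 in fasted LKO, and 10 for Apoc3 in control refeeding, of 26 alternatives for each. Members called in fasted LKO against control numbered 2 with only the fasted groups in the fit (5 with all), and 2 to 5 with 1 library left out. In the refed comparison DESeq2 called 3 and library totals alone 2, against 1, and leaving out a library gave 1 to 2. For control refeeding DESeq2 called 4, no filter on low counts 1 and a fit of only the groups compared 1, against 2, and leaving out a library gave 1 to 2. Leaving out a library gave 0 in the LKO refeeding and the interaction contrasts each time. The removal of the gene-length trend was chosen after seeing the data.

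Signs turned only where the value was near 0. For Apob in refed LKO the main value was -0.01, against 0.00 by DESeq2, limma-voom and with no filter on low counts, 0.04 with library totals alone and 0.09 with the gene-length trend removed, and -0.07 to 0.08 with a library left out. For Apom the gene-length trend gave 0.00 in fasted LKO and -0.05 in the interaction, and library totals alone gave 0.02 in refed LKO. With the gene-length trend removed the interaction of Apoc3 was -0.00. With a library left out, values crossed 0 for Apom in fasted LKO (-0.23 to 0.05), in refed LKO (-0.14 to 0.11), in LKO refeeding (-0.19 to 0.09) and in the interaction (-0.07 to 0.21), for Apoa5 in LKO refeeding (-0.10 to 0.17) and for Cpt1a in control refeeding (-0.27 to 0.04). The cause was not tested.

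No paired analysis was possible because the count columns carry no replicate numbers. Among the members depth limits mainly Apoc2, with 46 to 139 counts per library and 211 to 429 per group. Of the other genes named, Vldlr had 120 counts in all in fasted LKO and Apobr 104 in refed LKO, so their fold changes rest on fewer counts.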
